A study of Homo sapiens with 6 samples.

Results

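RNA-seq counts of T98G cells were read for 106 homeobox and PAX genes outside the HOX clusters, chosen by symbol from the 57133 symbols in the table. The rule took the PAX, sine oculis homeobox, LHX, ISL, DLX, NKX, MSX, EN, EMX, IRX, MEIS, PBX, TGIF, OTX, PITX, PRRX, POU, ZFHX and ZEB families. Of the 106 rows, 94 are protein-coding genes, 11 are pseudogenes and 1 is EMX2OS, a noncoding RNA antisense to EMX2. T98G is an established glioblastoma line. In it, CBX8 had been knocked out with CRISPR guides delivered by transient transfection, and the knockout cells were then stably transduced with a doxycycline-inducible lentiviral vector. The vector was empty in 3 libraries (CBX8 KO) and carried V5-tagged wild-type CBX8 in the other 3 (WT CBX8 re-expression). All 6 libraries come from cells given doxycycline at 1 μg/ml for 72 h and carry the same CBX8 knockout, although the labels give the genotype of the re-expression libraries as wild type. The methods do not say whether the knockout line was grown from 1 clone. The empty-vector and CBX8 cells were transduced and selected as separate lines, so an effect of CBX8 and a difference between lines cannot be told apart.

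A homeodomain is a DNA-binding fold that recognises short AT-rich sites, and most homeobox factors set the identity of a body region, tissue or cell type in the embryo. PAX factors carry a paired domain, to which some members add a complete or partial homeodomain. TALE factors (PBX, MEIS, IRX and TGIF) have 3 extra residues between the first helices of the homeodomain, and PBX and MEIS proteins bind DNA together with HOX proteins. CBX8 is a subunit of Polycomb repressive complex 1, which binds chromatin marked by H3K27me3, and homeobox genes that a cell does not use are well-known carriers of that mark. The comparison therefore asks which of these developmental regulators a glioblastoma line transcribes without CBX8, and which of them change once CBX8 is present.

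Total counts lay between 7950190 and 8659796 per library. CBX8 itself had 96, 104 and 83 counts in CBX8 KO and 30372, 31408 and 27791 counts upon re-expression, in the direction of the labels. Of the glioma and astroglial markers, CD44 and VIM had at least 20126 and 21563 counts in every library, GFAP had 13 to 30 counts, and S100B, AQP4 and SOX2 had 0 counts in all 6 libraries. Of the 7 tested among these 14 markers, CD44, SOX9 and SLC1A3 fell upon re-expression by 0.21, 0.27 and 0.45 on the log2 scale (edgeR adjusted p = 0.0097, 0.0039 and 0.0072) and TNC rose by 1.39 (7.2e-15), while the summed level of the 14 was 5675 to 5987 CPM in CBX8 KO and 5380 to 5810 CPM upon re-expression. The 6 blood and endothelial markers together stayed between 0.685 and 1.18 CPM. The 6 neuronal markers together lay between 10.5 and 11.5 in CBX8 KO and between 13.7 and 15.4 upon re-expression, mostly SNAP25, with STMN2, DCX and NEUROD1 at 0. The part of these marker differences in the results for homeobox genes was not tested. CPM are counts divided by the TMM-normalized library size and scaled to 1000000. Bulk RNA does not separate fewer cells that use a gene from less RNA per cell.

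Detection split the 106 genes into 46 that passed edgeR's expression filter and were tested, 29 with counts below it, and 31 with 0 counts in every library. The 31 silent rows hold 24 protein-coding genes. A count of 0 allows up to 3 counts, which is 0.343 to 0.384 CPM per library and covers counting error only. All 46 tested rows are protein-coding. Together the 106 genes took 0.0770% to 0.0773% of the counts of a CBX8 KO library and 0.0815% to 0.0864% upon re-expression. These ranges do not overlap, and the difference was not tested. The shares are of raw counts, without the TMM factors. Those factors were 0.971 to 0.987 in CBX8 KO and 1.01 to 1.03 upon re-expression, so in CPM the ranges would lie closer together.

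By rows, the zinc finger homeobox class (ZEB and ZFHX) was the most complete, with 4 of its 5 genes tested. The TALE class followed with 12 of 19 rows, and all 4 pseudogenes of that class were below the filter or silent. Of the 15 protein-coding TALE genes 12 were tested, so without pseudogenes these classes were equally complete. Of the NK and related genes, 13 of 27 were tested, of the sine oculis homeobox genes 3 of 6, of the PAX genes 4 of 9, and of the LIM genes (LHX and ISL) 4 of 10. In the paired-like class (OTX, PITX and PRRX), 3 of 8 rows were tested. The POU class was the least complete, with 3 rows tested of 22, of which 16 are protein-coding and 6 are pseudogenes. The neural POU genes POU3F3, POU3F4, POU4F1 and POU4F2 had 0 counts. POU3F2 had 1 count in all. Other silent genes include OTX2 and SIX3, both known for forebrain and eye development, the B-cell factor PAX5, the muscle precursor factor PAX7 and the heart factor NKX2-5.

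**Figure D1:**
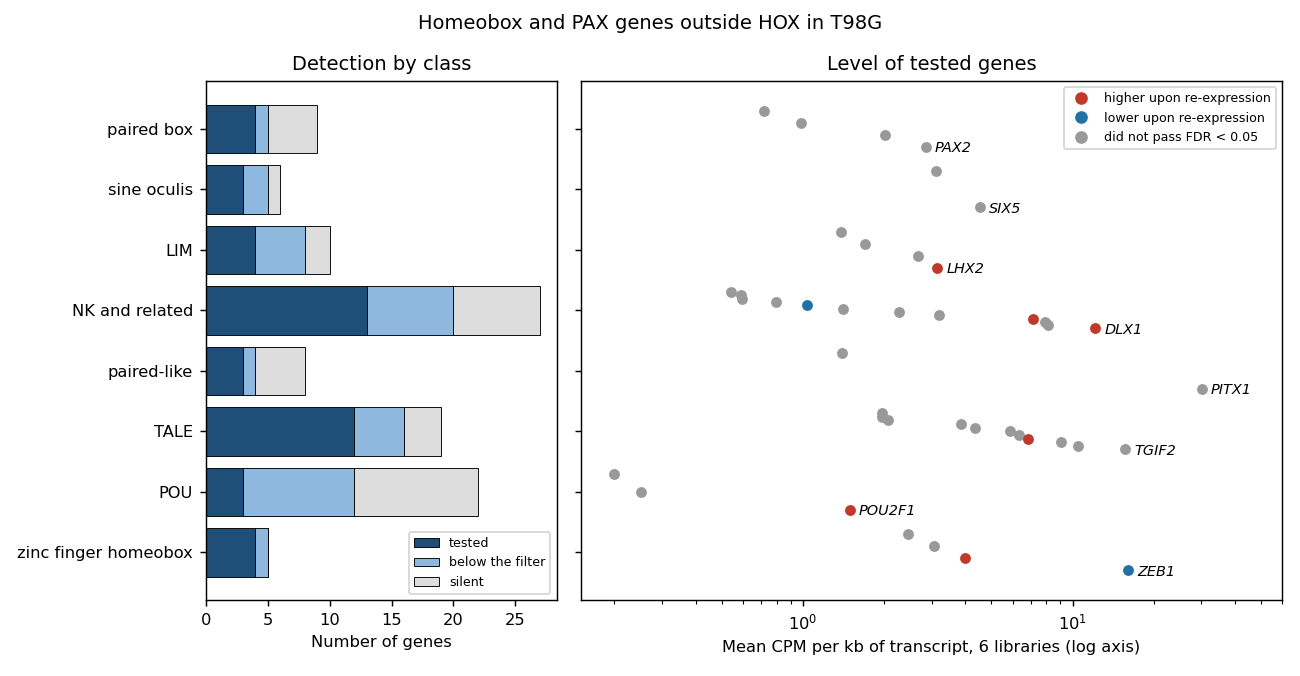
Left, the number of genes per class that were tested, had counts below the filter, or had 0 counts in all 6 libraries. Right, the mean level of 42 of the 46 tested genes in CPM per kb of transcript (log axis), coloured by the test, with the highest gene shown of each class named. PITX1 stands highest at 30.1, and POU2F2 lowest at 0.199.

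Levels between genes were compared in CPM per kb of the canonical transcript. Among the 46 tested genes this level ran from 0.199 for POU2F2 to 30.1 for PITX1, with a median of 2.96. The median of the 12700 tested genes with a known length was 8.78, and 6 of the 46 lay above it. PITX1, a hindlimb and pituitary factor, was at 30.2 ± 2.01 (SD, n = 3) in CBX8 KO and 30.1 ± 1.85 upon re-expression. ZEB1, a repressor of epithelial genes, was at 17.1 ± 1.31 and 15 ± 0.856. TGIF2, a corepressor in TGF-beta signalling, was at 16.0 ± 1.18 and 15.2 ± 0.51, which overlaps ZEB1 within the spread of the libraries. DLX1 (12.1 over all 6 libraries), IRX1 (10.5), MEIS2 (9.03), MSX2 (8.10) and MSX1 (7.93) were also among the 10 highest levels. The mean levels of MSX2 and MSX1 differ by less than their spread.

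Over all 14461 tested genes, the re-expression libraries were set against those of CBX8 KO by the quasi-likelihood test of edgeR, with a Benjamini-Hochberg FDR of 0.05. Of the 46 homeobox and PAX genes tested, 7 rose and 3 fell, which is 15.2% and 6.52%. Over all tested genes, 6.23% were called higher and 6.63% lower. The share that fell is near the background and the share that rose is above it, with no test of either difference. The median log2 fold change of the 46 was 0.15, with 30 above 0, where all tested genes had a median of 0.0049 and 51.2% above 0. Of the 46, 2 (NKX6-2 and POU6F1) passed the filter through the re-expression libraries alone, and neither was called.

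With library size as the only scaling, 8 of the 46 were called higher and 1 lower. In that fit 1400 of all tested genes were called higher and 592 lower, against 901 and 959 with TMM. The median log2 fold change of all tested genes was then 0.060, so the upward lean in that fit was not particular to the 46. Libraries of the conditions did not overlap for 11 genes that were higher and 2 that were lower, 28.3% of the 46, beside 28.9% of all tested genes. Over all tested genes, 14.4% were higher and 14.4% lower without overlap. The smallest exact permutation p for 3 against 3 libraries is 0.1, so for 1 gene taken alone no overlap cannot pass 0.05.

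**Figure D2:**
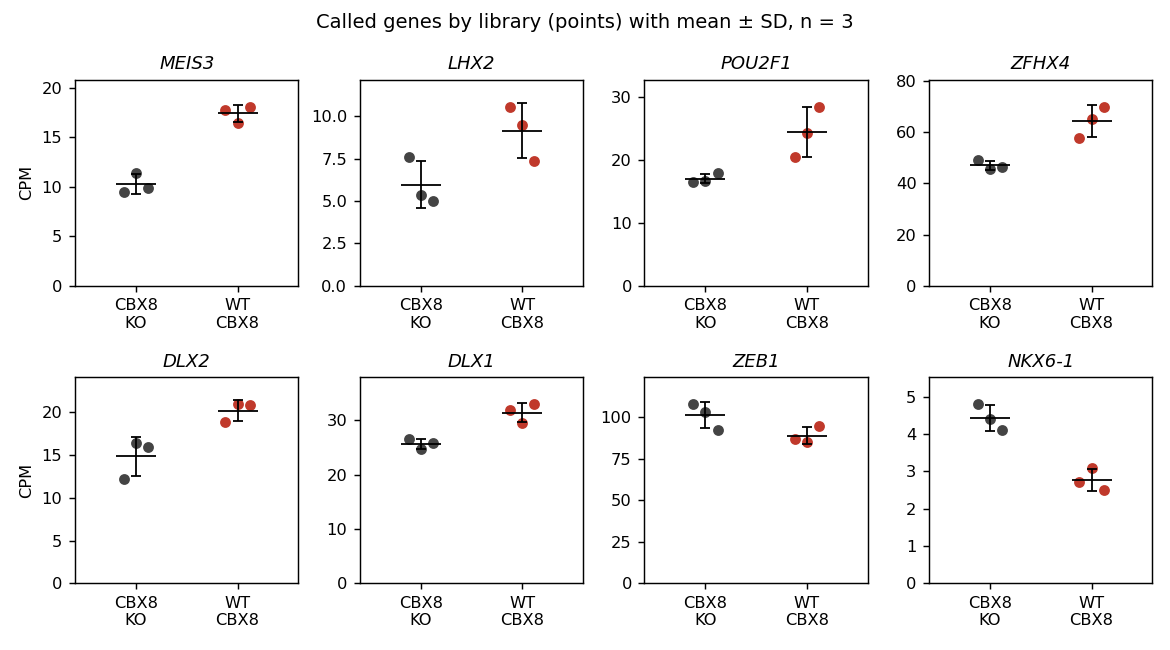
CPM in each of the 6 libraries (points) for 8 of the 10 called genes, with mean ± SD (n = 3) in black and each vertical axis starting at 0. The libraries of the conditions are apart for 6 genes and overlap for LHX2 and ZEB1.

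MEIS3, a TALE partner of PBX and HOX proteins, had the largest rise. Its CPM was 9.47, 11.4 and 9.85 in the CBX8 KO libraries, in the order of their replicate numbers, and 17.7, 16.5 and 18.1 in those with re-expression. Every re-expression library was above every CBX8 KO library. The means were 10.2 ± 1.03 and 17.4 ± 0.867 (SD, n = 3 each), and the log2 fold change, given with its standard error (SE), was 0.76 (SE 0.12, adjusted p = 4.7e-05 by edgeR). MEIS3 (ENSG00000105419.18) lies on chromosome 19 from 47403124 to 47419527, minus strand. Its exons overlap no other annotated gene, and its processed pseudogenes MEIS3P1 and MEIS3P2 had 1 count each in all.

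The other MEIS genes were not called. MEIS2 was at 50.4 ± 0.535 CPM in CBX8 KO and 48.7 ± 1.55 upon re-expression (log2 fold change -0.05, 95% interval -0.19 to 0.09), and MEIS1 at 9.0 ± 0.987 and 9.89 ± 1.06 (0.13, interval -0.16 to 0.43; SD, n = 3 each). Per kb of transcript, MEIS3 made up 29.6% to 33.3% of the MEIS counts in the CBX8 KO libraries and 41.3% to 45.4% upon re-expression, and the share of MEIS2 went from 53.6% to 58.4% down to 43.9% to 46.7%. Such shares within a library do not depend on how libraries are scaled.

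Of the PBX genes, which encode partners of MEIS and HOX proteins, PBX3 (0.06, interval -0.20 to 0.31) and PBX4 (0.39, interval -0.15 to 0.93) were not called. PBX2 had 14 counts in all and PBX2P1, its pseudogene, 28. Both match 6 alternate contigs of hg38, so these low counts are uncertain. The remaining TALE genes, IRX1, IRX2, IRX3, IRX5, TGIF1 and TGIF2, all had negative log2 fold changes, between -0.24 for IRX2 and -0.07 for TGIF2, and none was called.

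**Figure D3:**
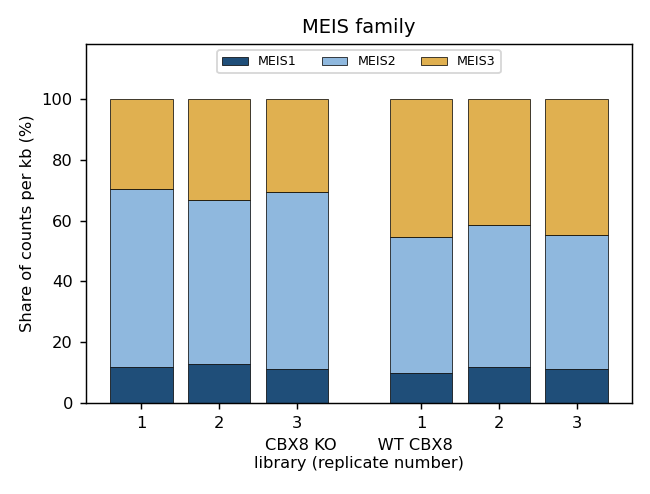
Share of each tested MEIS gene in the counts per kb of the MEIS genes, in percent, as stacked bars for each library of CBX8 KO (left 3 bars) and WT CBX8 re-expression (right 3 bars). The share of MEIS3 lies between 29.6% and 33.3% in CBX8 KO and between 41.3% and 45.4% upon re-expression.

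SIX4, a sine oculis homeobox factor that works with EYA coactivators in muscle and kidney development, was not called. Its CPM was 20.4, 18.9 and 17.1 in CBX8 KO and 20.9, 21.5 and 22.6 upon re-expression, with no overlap, and the log2 fold change was 0.20 (95% interval -0.01 to 0.41, edgeR adjusted p = 0.22). SIX6 had 1 count in all. SIX5, a relative on chromosome 19, was not called (0.13, interval -0.13 to 0.40), and DM1-AS overlaps its exons.

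DLX1 and DLX2 are neighbours on chromosome 2 that face each other across 9.76 kb, and both are known from forebrain interneurons and the branchial arches. Both rose. DLX1 was at 26.5, 24.7 and 25.9 CPM in CBX8 KO and 31.9, 29.5 and 33 upon re-expression, with no overlap (log2 fold change 0.29, SE 0.09, adjusted p = 0.032 by edgeR). Its call was lost in 7 of 18 alternative fits, among them DESeq2 (adjusted p = 0.12) and the fit without CBX8 KO replicate 2 (0.12). DLX2 was at 12.2, 16.4 and 15.9 CPM in CBX8 KO and 18.8, 20.9 and 20.8 upon re-expression. The first CBX8 KO library was the lowest, and the groups did not overlap. Its log2 fold change was 0.44 (SE 0.12, adjusted p = 0.010 by edgeR), and the call was lost when CBX8 KO replicate 1 (0.076) or re-expression replicate 2 (0.057) was left out. The DLX genes of the chromosome 17 cluster, DLX3 (0.29, interval -0.21 to 0.80) and DLX4 (-0.13, interval -0.50 to 0.24), were not called. In the chromosome 7 cluster, DLX5 had 9 counts in all and DLX6 had 0.

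The 250 bases before the start of DLX2 and MEIS3 are shown because both genes rose and their stretches differ in CpG content. The sequences were read from RefSeq (GRCh38.p14), 5′ to 3′ on the strand of the gene, with each CG in capitals. The RefSeq start of MEIS3 lies upstream of the GENCODE gene given above, so the stretch does not adjoin that gene's end, whereas that of DLX2 does.
DLX2, chr2:172102901-172103150, minus strand: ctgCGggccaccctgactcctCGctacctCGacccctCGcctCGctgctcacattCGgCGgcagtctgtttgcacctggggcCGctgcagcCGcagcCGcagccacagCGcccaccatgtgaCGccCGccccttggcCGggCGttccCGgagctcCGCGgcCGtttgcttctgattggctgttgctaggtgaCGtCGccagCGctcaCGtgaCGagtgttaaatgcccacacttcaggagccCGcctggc
MEIS3, chr19:47422234-47422483, minus strand: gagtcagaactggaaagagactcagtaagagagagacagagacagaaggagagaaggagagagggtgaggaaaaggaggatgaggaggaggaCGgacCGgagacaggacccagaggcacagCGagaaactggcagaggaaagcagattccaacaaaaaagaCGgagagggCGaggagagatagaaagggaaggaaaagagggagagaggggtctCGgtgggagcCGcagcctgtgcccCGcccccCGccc
DLX2 holds 25 CG dinucleotides, which is 0.886 of the number expected from its C and G content. MEIS3 holds 9, or 0.511 of the expected number, the lowest ratio of the 7 called genes with an entry.

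LHX2, a LIM factor of the forebrain, eye and limb, was at 7.57, 5.35 and 4.99 CPM in CBX8 KO and 10.6, 9.48 and 7.38 upon re-expression. The lowest re-expression library fell below the highest CBX8 KO library. Its log2 fold change was 0.62 (SE 0.18, adjusted p = 0.019 by edgeR). DESeq2 did not call it (adjusted p = 0.087), and it lost its call without any 1 of CBX8 KO replicates 2 and 3 and WT CBX8 re-expression replicates 1 and 2. ENSG00000234921 overlaps its exons. The other tested LIM genes, LHX4 (0.27), LHX6 (0.16) and ISL2 (0.23), had positive log2 fold changes and were not called. ISL1, the motor neuron and heart progenitor factor, had 1 count in all.

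POU2F1, also called OCT1, is a widely expressed factor that binds the octamer sequence. Its CPM was 16.5, 16.6 and 17.9 in CBX8 KO and 20.5, 24.2 and 28.5 upon re-expression. The groups did not overlap, and the re-expression libraries were the more spread. Its log2 fold change was 0.52 (SE 0.11, adjusted p = 0.0025 by edgeR), and it kept its call in all 18 alternative fits. CD247, whose exons overlap those of POU2F1 on the opposite strand, had 0 counts in all 6 libraries. POU2F2 and POU6F1, the other tested POU genes, had between 7 and 17 counts per library and were not called (0.24 each).

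ZFHX4, a very large zinc finger and homeodomain protein, was at 49.1, 45.5 and 46.6 CPM in CBX8 KO and 57.6, 65.1 and 70.0 upon re-expression. All re-expression libraries were higher. The log2 fold change was 0.45 (SE 0.07, adjusted p = 9.5e-05 by edgeR), and the call held in all 18 alternative fits. ZFHX4-AS1 had 21, 3 and 10 counts in CBX8 KO and 41, 17 and 24 upon re-expression and did not pass (1.17, adjusted p = 0.059). ZFHX3, its relative, was not called (0.19, interval -0.05 to 0.44).

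ZEB1 fell by 0.18 on the log2 scale (SE 0.06, adjusted p = 0.047 by edgeR), the smallest change called among the 46. Its CPM was 108, 103 and 92.7 in CBX8 KO and 87.1, 85.3 and 94.9 upon re-expression, so the groups overlap. The call was lost in 10 of 18 alternative fits, including DESeq2 (adjusted p = 0.14) and library size scaling (0.17). ZEB1-AS1, which overlaps it on the opposite strand, had 47 to 63 counts per library and was not called. ZEB2 was not called (-0.05, interval -0.27 to 0.16).

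NKX6-1, a factor of pancreatic beta cells and ventral spinal cord progenitors, had 38, 37 and 32 counts in CBX8 KO and 23, 27 and 21 upon re-expression. Every re-expression library was below every CBX8 KO library. In CPM the means were 4.43 ± 0.351 and 2.76 ± 0.297 (SD, n = 3 each), and the log2 fold change was -0.68 (SE 0.22, adjusted p = 0.046 by edgeR). The call was lost in 11 of 18 alternative fits, including DESeq2 (adjusted p = 0.21) and each of the 6 that left out a library. The 250 bases before its start, at chr4:84499293-84499542 on the minus strand of GRCh38.p14 (RefSeq), are shown with each CG in capitals because they hold the octamer near their 3′ end.
NKX6-1: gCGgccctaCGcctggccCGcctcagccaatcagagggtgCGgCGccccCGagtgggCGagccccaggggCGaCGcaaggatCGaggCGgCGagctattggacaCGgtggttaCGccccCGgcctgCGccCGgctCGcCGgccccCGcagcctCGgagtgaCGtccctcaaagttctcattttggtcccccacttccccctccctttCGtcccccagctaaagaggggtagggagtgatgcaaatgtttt
The octamer ATTTGCAT, searched on both strands, was in 2 of the 34 tested homeobox and PAX promoters with an entry (LHX6 and NKX6-1) and in 1.22% of the promoters of all tested protein-coding genes. NKX6-2 had 8, 13 and 10 counts in CBX8 KO and 16, 17 and 19 upon re-expression. These did not overlap, and the difference was not called (0.65, interval -0.02 to 1.33). INPP5A, whose exons overlap NKX6-2 on the opposite strand, rose by 0.48 (edgeR adjusted p = 0.0025), and its part in the NKX6-2 counts was not tested.

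**Figure D4:**
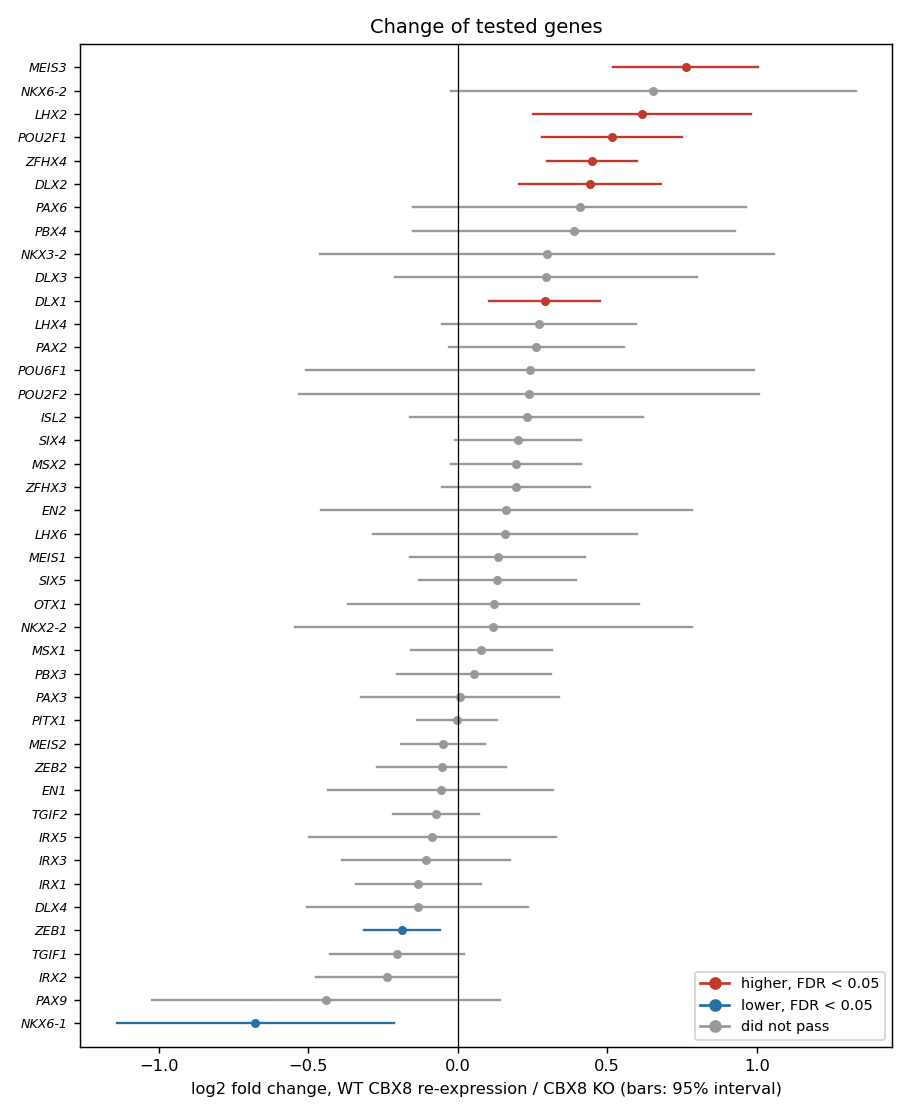
Log2 fold change of WT CBX8 re-expression over CBX8 KO for 42 of the 46 tested genes, with 95% intervals, ordered by value and coloured where FDR was below 0.05. MEIS3 is at the top (0.76) and NKX6-1 at the bottom (-0.68).

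The other 36 tested genes were not called. For 19 of them the 95% interval of the log2 fold change lay within 0.5 of 0, and for 17 it reached further, so that a change of 0.5 was not excluded for these. PITX1 had the narrowest interval of these 36 (-0.14 to 0.13). MSX1 (0.08, interval -0.16 to 0.31), a BMP-responsive factor, was likewise within 0.5. Groups did not overlap for MSX2 (0.20), ISL2 (0.23) and EN2 (0.16), whose adjusted p-values from edgeR were 0.26, 0.49 and 0.80.

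The PAX family had no called gene. PAX2, a kidney and midbrain-hindbrain factor, was its highest member per kb and went from 10.9 ± 1.14 to 13.1 ± 2.71 CPM (SD, n = 3 each; log2 fold change 0.26, interval -0.03 to 0.56). PAX3, a neural crest and muscle precursor factor, was at 6.75 ± 0.683 and 6.78 ± 0.166. PAX6, the eye and cortex factor, was at 2.31 ± 0.622 and 3.08 ± 0.297 (0.41, interval -0.15 to 0.96), and ELP4 overlaps its exons. PAX9, of pharyngeal pouches and teeth, was at 3.45 ± 0.87 and 2.53 ± 0.934 (-0.44, interval -1.02 to 0.14). Its log2 fold change was -0.19 without re-expression replicate 3, -0.23 without CBX8 KO replicate 1 and -0.71 without re-expression replicate 1. PAX8 had 44 counts in all, below the filter, and PAX1, PAX4, PAX5 and PAX7 had none.

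Below the filter, the highest totals over the 6 libraries were 46 for NKX1-2, 44 for PAX8, 35 for NKX2-1, 28 for PBX2P1 and 19 for POU5F1. POU5F1 also matches 6 alternate contigs of hg38. PRRX1, a mesenchymal factor named after its values were seen, had 0 counts in each CBX8 KO library and 1, 7 and 6 counts upon re-expression. If 3 counts are allowed over the CBX8 KO libraries together, it was 4.39-fold higher. That value leaves out the counting error of the re-expression libraries, so it is no lower bound. Its 14 counts fell short of the filter, and in a fit without the filter its adjusted p from edgeR was 0.0054. PRRX1 was picked for these same counts, so the fold and the p-value are no separate support for a change.

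Several of these genes sit side by side in the genome. Protein-coding members with gaps of at most 1 Mb formed 10 clusters that hold 25 genes. In 6 clusters tested and untested genes were mixed, in 2 all genes were tested, and in 2 none was. In the IRX cluster on chromosome 5, IRX1 and IRX2 had 1083 and 899 counts in all, while IRX4 had 0. On chromosome 16, IRX3 and IRX5 had 570 and 234 counts, and IRX6 had 0. On chromosome 14, PAX9 had 148 counts, whereas NKX2-8, 75.0 kb away, had 12 and NKX2-1, beyond NKX2-8, had 35.

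Promoter CpG content was high in silent and in transcribed members. RefSeq gave 250 bases before the start for 68 of the 94 protein-coding members, and its starts can differ from those of GENCODE, as for MEIS3 and DLX1. The median ratio of observed to expected CpG was 0.812 for 34 tested members, 0.712 for 18 below the filter and 0.796 for 16 silent ones. Over all protein-coding genes it was 0.830 for 9272 tested and 0.305 for 2889 silent genes. A ratio above 0.6 was found in 13 of the 16 silent members (81.2%), beside 27.2% of all silent genes. The exceptions were PAX4 (0.0477), POU1F1 (0.291) and OTX2 (0.505). The homeodomain core TAAT, searched on both strands, was in 15 of the 34 tested members (44.1%) and in 32.0% of the promoters of all tested protein-coding genes. It was in 2 of the 7 called members with an entry (28.6%) and in 43.8% of the silent members beside 56.9% of all silent genes. Among all members with an entry it was in 41.2%, beside 39.5% of all protein-coding genes. The ZEB E-box CAGGTG was in 3 of the tested members (DLX2, LHX6 and ZEB1, 8.82%) beside 14.7%. These are descriptions of sequence, with no test.

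**Figure D5:**
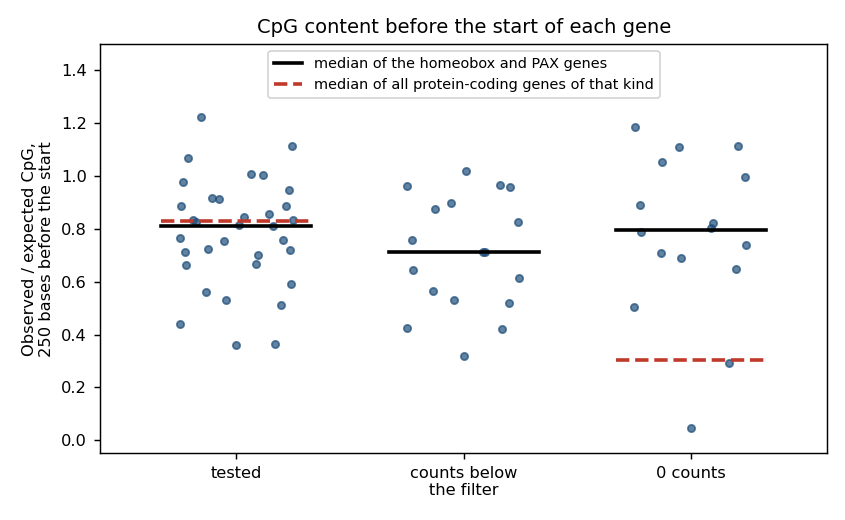
Observed over expected CpG in the 250 bases before the start of 68 homeobox and PAX genes (points), by detection, with their median (black) and the median of all tested or all silent protein-coding genes (red, dashed). The silent genes have a median of 0.796, beside 0.305 for all silent genes.

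Other genes of the same regulatory system were read from lists that hold none of the 106. Of 33 cofactors of homeodomain and PAX proteins in the table, 27 were tested, 4 fell and 1 rose, which is 18.5% called beside 12.9% of all tested genes, with a median log2 fold change of -0.05. EYA1, a coactivator partner of sine oculis homeobox factors, had 227, 238 and 227 counts in CBX8 KO and 150, 139 and 154 upon re-expression, with no overlap (-0.73, SE 0.10, adjusted p = 5.8e-06 by edgeR). EYA4, of the same family, fell by 0.22 (adjusted p = 0.028). LMO4, a LIM-only protein, and SSBP2, which binds the LIM cofactor LDB1, fell by 0.35 and 0.49 (adjusted p = 0.00042 and 4.8e-05). The corepressor TLE2 had 27, 41 and 24 counts in CBX8 KO and 72, 56 and 54 upon re-expression, a rise of 0.90 (edgeR adjusted p = 0.0036).

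Of 79 homeobox genes outside the naming rule and outside HOX, 25 were tested and 29 had 0 counts. CUX1 (0.56), ZHX3 (0.29) and DMBX1 (1.54) rose and TSHZ1 fell by 0.41 (edgeR adjusted p-values between 5.8e-07 and 0.021). That is 16.0% called beside 12.9% of all tested genes, with a median of 0.15. DMBX1 had 3 to 7 counts per CBX8 KO library and 11 to 18 upon re-expression. It passed the filter through the re-expression libraries alone, where it is high, so its call is no separate support for a change. A further list held 30 genes linked to ZEB1 and ZEB2, among them the factors SNAI1, SNAI2, TWIST1 and TWIST2. Of these, 15 were tested, 4 rose and 2 fell. That is 40.0% called beside 12.9% of all tested genes, with a median of 0.08, and the difference was not tested. The keratins KRT8 and KRT18 (0.23 and 0.21), which mark epithelia, and the mesenchymal genes ITGA5 (0.62) and FN1 (0.22) rose. MMP2 and SNAI2, also mesenchymal, fell by 0.59 and 0.45 (edgeR adjusted p-values of these called genes between 1.3e-09 and 0.010). Of the other epithelial genes listed, CLDN4, TJP1 and PATJ were tested and not called. CDH1 had 0 counts in each CBX8 KO library and 4, 2 and 1 upon re-expression, was below the filter and was not tested. EPCAM had 0 to 3 counts per library, KRT19 0 to 1 and OCLN 0.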

How the data were processed

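The libraries hold poly(A) RNA read as pairs of 100 bp. The authors trimmed adapters with Trimmomatic, aligned reads to hg38 with HISAT2 and deposited raw counts per gene symbol. Their versions, counting program, annotation and strand setting are not given in the sources used here, so reads of antisense or near-identical genes could be split. Samples were grouped by title. The labels name no separate cultures, so SD, n and p-values measure spread between libraries.

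In R 4.3.3, genes passing filterByExpr of edgeR 4.0.16 (minimum count 10, minimum total count 15) were TMM-normalized. They were tested by glmQLFit and glmQLFTest with condition as the only term, and Benjamini-Hochberg adjusted over 14461 genes. Libraries of a condition differed beyond sampling noise (chi-square per degree of freedom 2.06 to 3.09). Standard errors are the absolute log2 fold change over the square root of F, and intervals are 95%. The test was tested on simulated data. Symbols were matched by name or synonym to GENCODE release 44, all 106 members included. Copies on 261 alternate contigs were sought with minimap2 2.31 (95% of transcript bases). Named are called or non-overlapping members, the 10 highest per kb, the 3 highest and lowest fold changes, the 5 highest totals below the filter and, of each list, up to 3 called genes with the lowest and 3 with the highest fold changes. Other genes of the same families, overlapping or antisense genes, EYA4, PRRX1 and the uncalled genes named from the ZEB list were added after values were seen. Members and lists were chosen with earlier results of these data known. Alternatives were other scalings, filters, tests (DESeq2 1.42.0, limma 3.58.1), thresholds, a replicate block and each library left out. Offsets for GC content and length (87.8% of tested genes) and legacy set to FALSE were added after seeing the data. Some genes are not reported here by name, though counts and medians over the group include them.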

Additional observations from a re-analysis of the deposited data

How the results depend on the processing

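MEIS3, POU2F1 and ZFHX4 kept their direction and call in all 18 alternative fits, as did CBX8. Over the 22 tested genes named by rule, 353 of 396 fits kept the result, 36 lost a call and 7 changed sign. The sign changes were small values that were never called: PITX1 (-0.0035) at 0.0090 with upper quartile scaling, 0.052 with library size only and 0.019, 0.027 and 0.044 in 3 of the 6 fits with a library left out (range -0.059 to 0.044), MEIS2 at 0.0072 with library size only, and MSX1 at -0.0048 with GC content and length offsets. The 3 genes that fell became 1 at FDR < 0.01, with upper quartile scaling, library size only, DESeq2, limma voom and the replicate block, and 1 to 2 with a library left out, 1 for CBX8 KO replicates 1 and 2 and re-expression replicates 1 and 2. The 7 that rose became 3 with a minimum 1.5-fold change and 4 to 7 with a library left out, the lowest without WT CBX8 re-expression replicate 2. With the minimum 1.5-fold change, the calls in the list of other homeobox genes went from 4 to 1, in the cofactors from 5 to 2 and in the ZEB list from 6 to 2. The cofactors had 11 calls with GC content and length offsets. Stricter thresholds lower counts by construction, and for the others the cause was not tested. With at least 1 count in any library, 75 genes in place of 46 count as expressed.

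With the replicate number as a block, 7 of the 10 calls remained. Deviations of same-numbered libraries correlated at -0.12, -0.095 and -0.098 across 11402 genes, and 0 of the 6 libraries correlated best with its own number. These values show no pairing by number. With deviations taken from the mean of 3 libraries per condition, the check has little power to detect pairs. Over all genes, 959 fell and 901 rose, against 592 and 1400 with library size only and 1528 and 754 with the GC content and length offsets. The median log2 fold change of all tested genes was 0.0049, 0.060 and -0.0235 in these fits in turn. The median of the 46 is given for the first of them alone. The 95% interval reached 0.127 to 0.769 either side of the log2 fold change over the 46 genes, with a median of 0.292.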
